A study of Mus musculus with 12 samples.

Results

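The response of the neonatal lung to LPS in mice with 1 functional copy of the adrenomedullin gene (Adm+/-) was described from 6 of the 12 libraries of the study, chosen by their labels: 3 Adm+/- LPS libraries (replicates 1, 2 and 12) and 3 Adm+/- PBS libraries (replicates 6, 7 and 8). The mice were on the C57BL/6J background and received LPS of Escherichia coli O55:B5 at 6 mg/kg, or PBS, intraperitoneally once a day for 3 days from postnatal day 3 to postnatal day 5. Whole lungs were taken 6 hours after the third dose, and each library came from 1 mouse. The remaining 6 libraries were wild-type (WT) mice given PBS or LPS in the same way, 3 in each group, and served here for the shared estimate of the spread and for the comparison at the end.

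LPS, the outer membrane lipid of Gram-negative bacteria, is recognised by CD14, MD-2 and Toll-like receptor 4 on macrophages, endothelium and epithelium, and the signal passes through NF-kappa B and interferon regulatory factors to chemokines, cytokines and adhesion molecules that bring neutrophils into the tissue. In the neonatal mouse lung, alveoli are still being formed by growth factors exchanged between epithelium, fibroblasts and capillaries, and repeated LPS in this window is used as a model of bronchopulmonary dysplasia. Adrenomedullin is a secreted peptide that acts mostly on endothelium through the receptor CALCRL paired with RAMP2 or RAMP3. The heterozygous deletion was carried by every cell of the mouse and by both groups compared, so the comparison concerns LPS and not the deletion.

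The 6 libraries held between 24378367 and 33626785 assigned counts. Values are given as CPM, counts scaled to the protein-coding total of the library with TMM factors, and single libraries are listed in the order PBS replicates 6, 7 and 8 and LPS replicates 1, 2 and 12. A gene was called when edgeR's quasi-likelihood test gave an adjusted p under 0.05 and the log2 fold change (LPS against PBS) was beyond 0.5 in size. PBS replicate 6 stood apart: the long noncoding RNA Gm26917 took 13.3% of its counts, against 5.42% to 7.4% in the other 5 libraries, and its collagen genes summed to more than those of the others (PBS libraries 44700, 26100 and 26100 CPM). Of the WT libraries in the fit, PBS replicate 5 stood further apart, with 16.6% of its counts on Gm26917, and 4503 genes were called in Adm+/- without it, against 3968 with it. Adm+/- PBS replicate 7 and LPS replicate 2 carried more interferon-stimulated transcripts than their group, and 4 Y-linked genes summed to 265 CPM in PBS replicate 8 and to 0.101 CPM or less in the other 5. Sftpc, the surfactant protein gene of the alveolar type II pneumocyte, was at 8199 CPM or more in each of the 6. Where leaving out 1 of the 12 libraries, or PBS replicate 7 and LPS replicate 2 together, moved a list count given here by over 1.5 times, the count without them stands beside it.

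Adm itself (chr7:110627661-110629820 on the plus strand of GRCm38, the build called mm10) was at 4.58, 2.87 and 3.62 CPM in the Adm+/- PBS libraries and 3.74, 6.28 and 3.92 CPM in the Adm+/- LPS libraries. The WT libraries held 3.96, 7.09 and 4.57 CPM (PBS replicates 3, 4 and 5) and 7.77, 8.15 and 4.46 CPM (LPS replicates 9, 10 and 11), so the range of each Adm+/- group overlapped the range of the WT group given the same agent. The log2 fold change of Adm with LPS in Adm+/- lungs was 0.34 ± 0.32 (SE; edgeR adjusted p = 0.449) and did not pass the test. Of its receptor genes, Ramp3 rose from 5.47, 3.45 and 3.14 CPM to 12.3, 14.3 and 12.5 CPM (log2 fold change 1.70 ± 0.30, edgeR adjusted p = 0.00159), with no overlap between the groups, as for 53.7% of all tested genes. Ramp2 was at 152, 127 and 128 CPM with PBS and 122, 86 and 99.5 CPM with LPS, also without overlap, and its log2 fold change of -0.40 ± 0.13 (edgeR adjusted p = 0.0425) was inside the 0.5 that a call needed (without LPS replicate 1 it was -0.54 and called). Calcrl stood at a log2 fold change of -0.20 ± 0.32 (edgeR adjusted p = 0.68) and was not called, and the decoy receptor Ackr3 rose by 1.43 ± 0.17. Calca, which encodes calcitonin and CGRP, another ligand of this receptor family, rose by a log2 fold change of 2.01 ± 0.39. Of the 24 tested genes of the adrenomedullin, endothelin, nitric oxide and angiotensin list, 7 were called higher and 4 lower, against 12.8% and 12.2% of all tested genes.

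Across 15885 tested protein-coding genes, 25.0% were called with LPS in Adm+/- lungs, 2035 higher (12.8%) and 1933 lower (12.2%). The rises were larger than the falls: 509 genes rose and 87 fell by more than 2 on the log2 scale, and 231 rose and 11 fell by more than 3. The median log2 fold change over all tested genes was -0.013. The 3 LPS and the 3 PBS libraries did not overlap in CPM for 53.7% of tested genes. Within the Adm+/- LPS group the median SD of log2 CPM over genes was 0.117, and within Adm+/- PBS 0.187. In the plot of the 10 largest rises and the 10 largest falls, the libraries of each group lie together and apart from the other group for every gene shown, as the rule that selected them required.

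**Figure D1:**
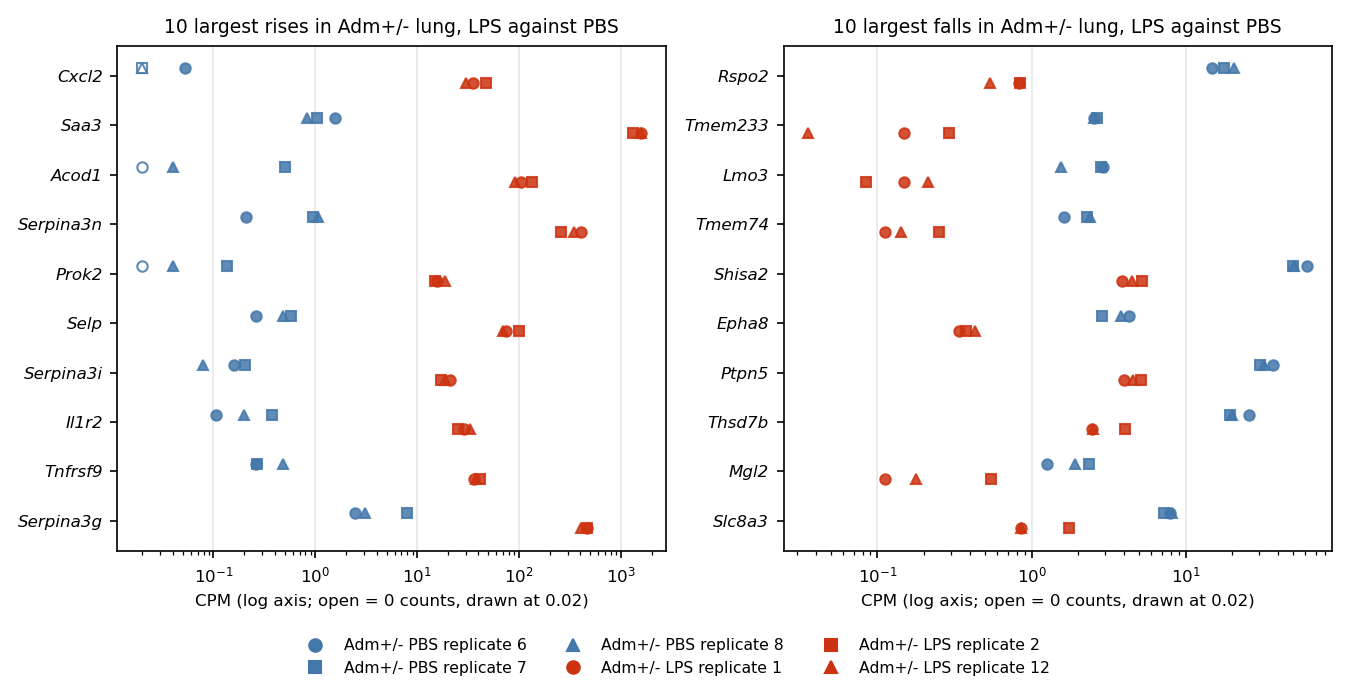
CPM of the 10 called genes with the largest rise (left) and the largest fall (right) in Adm+/- lung, 1 point per library on a log axis, PBS in blue and LPS in red. On the left, no LPS library is under 14.8 CPM and no PBS library above 7.97 CPM.

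The following 5 promoters belong to the largest rises whose window in RefSeq (GRCm38.p6; from 250 bases before to 50 bases after the transcript start, printed 5′ to 3′ on the gene's strand) held the NF-kappa B type sequence GGNNTTTCC or its reverse complement, which stands in capitals. Of the 10 largest rises, 8 held it in a window and the first 5 are printed. They show where that sequence lies in genes that were near 0 with PBS and abundant with LPS. Cxcl2 lies on the plus strand (chr5:90903649-90903948), Saa3 on the minus strand (chr7:46715627-46715926), and Acod1 (chr14:103046762-103047061), Serpina3n (chr12:104406458-104406757) and Selp (chr1:164115014-164115313) on the plus strand.
Cxcl2: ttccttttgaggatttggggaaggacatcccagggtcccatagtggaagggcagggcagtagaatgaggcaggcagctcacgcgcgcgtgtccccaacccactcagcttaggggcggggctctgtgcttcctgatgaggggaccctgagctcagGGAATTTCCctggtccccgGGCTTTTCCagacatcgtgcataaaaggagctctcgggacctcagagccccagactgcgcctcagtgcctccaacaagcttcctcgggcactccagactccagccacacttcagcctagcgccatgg
Saa3: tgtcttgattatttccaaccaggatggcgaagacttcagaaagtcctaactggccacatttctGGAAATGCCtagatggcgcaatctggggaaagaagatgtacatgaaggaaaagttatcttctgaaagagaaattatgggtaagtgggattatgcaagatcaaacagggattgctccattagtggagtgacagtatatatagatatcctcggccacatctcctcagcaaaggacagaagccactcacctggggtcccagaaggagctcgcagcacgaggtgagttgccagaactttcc
Acod1: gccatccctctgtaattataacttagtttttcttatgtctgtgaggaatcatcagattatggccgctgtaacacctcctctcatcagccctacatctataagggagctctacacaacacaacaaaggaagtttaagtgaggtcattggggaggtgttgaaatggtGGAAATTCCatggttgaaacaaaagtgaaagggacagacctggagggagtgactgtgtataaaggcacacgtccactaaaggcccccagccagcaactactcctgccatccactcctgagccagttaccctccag
Serpina3n: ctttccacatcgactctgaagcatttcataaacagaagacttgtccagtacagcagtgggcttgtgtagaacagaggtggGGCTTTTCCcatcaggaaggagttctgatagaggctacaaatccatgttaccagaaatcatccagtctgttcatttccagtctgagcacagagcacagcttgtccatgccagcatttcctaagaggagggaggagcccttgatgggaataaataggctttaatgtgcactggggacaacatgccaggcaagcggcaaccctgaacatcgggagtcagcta
Selp: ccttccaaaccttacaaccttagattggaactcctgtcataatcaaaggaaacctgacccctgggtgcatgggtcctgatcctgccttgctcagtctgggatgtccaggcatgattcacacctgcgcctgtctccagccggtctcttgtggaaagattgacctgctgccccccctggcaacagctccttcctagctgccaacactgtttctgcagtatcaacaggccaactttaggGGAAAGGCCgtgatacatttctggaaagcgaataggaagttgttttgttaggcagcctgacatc
The Cxcl2 window held 2 such sites and the other windows held 1 each. The sequence occurred on either strand in 5.82% of all 32851 promoter windows of the table. Among lists with a window for at least 80% of tested members, 3 of 6 windows of neutrophil-attracting CXC chemokines, 11 of 31 of NF-kappa B regulators, 5 of 25 of acute phase proteins and 1 of 24 of DNA replication genes held it. The C/EBP type sequence TTGCNNAA occurred in 10.8% of all windows and in 14 of 25 windows of acute phase proteins, 1 of 6 of CXC chemokines, 2 of 24 of DNA replication genes and none of 31 of NF-kappa B regulators. The STAT type sequence TTCNNNGAA (8.3% of all windows) was in 8, 0, 2 and 6 windows of these lists in the same order, the AP-1 type sequence TGANTCA (7.81%) in 5, 1, 0 and 7, and the interferon response type sequence GAAANNGAA (8.56%) in 4, 0, 0 and 3. The STAT and AP-1 type shares were above those of all windows in the acute phase and NF-kappa B lists. The interferon response type share was above in the acute phase list and near that of all windows in the NF-kappa B list (9.68%). The AP-1 type share of the CXC list, 16.7%, came from 1 window. A match describes letters in a window only, and no binding was measured.

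Most chemokines rose. Of the 7 CXC chemokines that attract neutrophils or come from platelets, 5 were called higher and none lower (median log2 fold change 4.66), and of 23 other chemokines tested, out of 28 listed, 17 were higher and 1 lower (median 2.17; none lower without PBS replicate 7 and LPS replicate 2 together). Cxcl2, a neutrophil attractant whose promoter is shown above, had 1 count at most in each PBS library and 35.4, 47.6 and 30.3 CPM in the LPS libraries, at least 299-fold higher than the level that 3 counts per library would give. Cxcl5, of the same chemokine cluster, went from 0.263, 0.304 and 0.278 CPM to 15.2, 17.4 and 14.8 CPM (log2 fold change 5.77 ± 0.72, edgeR adjusted p = 0.000216). Both genes separated the groups without overlap, and Cxcl3 rose by a log2 fold change of 4.66 ± 0.75. Ccl4, which attracts monocytes and T cells, rose by a log2 fold change of 6.39 ± 0.76, Ccl20, the ligand of CCR6, by 4.83 ± 0.86, and Cxcl13, which attracts B cells, by 4.77 ± 0.63. The chemokine that fell was Cxcl12, the capillary and stromal ligand of CXCR4 (log2 fold change -0.70 ± 0.17). Cxcl15, made by airway and alveolar epithelium and the most abundant of these chemokines, was not called (edgeR adjusted p = 0.0644). Cxcl10, an interferon-induced chemokine, was at 0.579, 1.08 and 0.278 CPM with PBS and 13.7, 102 and 16 CPM with LPS, and replicate 2 was the high one.

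Many cytokines and cytokine receptors rose. Of 30 cytokines tested, out of 38 listed, 19 were called higher and 1 lower (median 1.86; none lower without LPS replicate 2 or 12, PBS replicate 6 or 8 or PBS replicate 7 and LPS replicate 2 together), and Il17a, Ifnb1 and Ifng were among those with too few counts to test. The interleukin 1 receptor antagonist Il1rn was at 2.58, 5.27 and 4.37 CPM with PBS and 101, 132 and 110.1 CPM with LPS (log2 fold change 4.79 ± 0.47, edgeR adjusted p = 7.68e-05). The decoy receptor Il1r2, which binds interleukin 1 without signalling, went from 0.105, 0.372 and 0.199 CPM to 28.7, 25.3 and 32.9 CPM (log2 fold change 6.88 ± 0.86; 7.47 without PBS replicate 7). In both, the LPS libraries lay far above every PBS library. The granulocyte growth factor Csf3 rose by a log2 fold change of 5.19 ± 0.74 and its receptor Csf3r by 2.82 ± 0.23, the macrophage growth factor Csf1 by 2.55 ± 0.36, and the alarmin Il33 by 2.43 ± 0.36. The anti-inflammatory cytokine Il10 rose by a log2 fold change of 3.63 ± 0.76.

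Of 33 cytokine receptors tested, 26 were called higher and none lower (median 1.13; 1 lower without WT PBS replicate 3 or 5). The oncostatin M receptor Osmr was at 24.4, 38.3 and 33.8 CPM with PBS and 340.4, 356 and 309.5 CPM with LPS (log2 fold change 3.38 ± 0.63), and its partner Il6st, the shared signalling chain of the interleukin 6 family, rose by 1.66 ± 0.21. Il4ra, the receptor chain for interleukins 4 and 13, rose by a log2 fold change of 2.20 ± 0.26. Tnfrsf9, a costimulatory receptor also called 4-1BB, went from 0.263, 0.27 and 0.477 CPM to 36.4, 41.7 and 38.2 CPM (log2 fold change 6.82 ± 0.80). Tnfrsf9 overlaps Camta1 on the opposite strand, and Il1r2 overlaps unnamed transcripts on both strands, so their reads could be shared where strand was not used in counting.

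Genes that sense LPS and other microbial products rose in part. Of 29 tested, 16 were called higher and 2 lower (median 0.81). Cd14, which presents LPS to its receptor, was at 9.68, 10.1 and 7.47 CPM with PBS and 193, 269.8 and 222 CPM with LPS (log2 fold change 4.65 ± 0.34, edgeR adjusted p = 4.02e-05). Irak3, a kinase-dead relative that damps Toll-like receptor signalling, rose by a log2 fold change of 3.97 ± 0.40, Nod2, a sensor of bacterial cell wall fragments, by 2.92 ± 0.38, and Tlr2, a receptor for bacterial lipoproteins, by 2.75 ± 0.28. Tlr4, the LPS receptor itself, named here after its values were seen, was not called (12.8, 17.7 and 16.9 CPM with PBS, 21.7, 26.4 and 22.6 CPM with LPS, edgeR adjusted p = 0.0783).

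Of 28 NF-kappa B genes, 23 were called higher and none lower (median 1.32), and the largest rises were in its inhibitors and regulators. The deubiquitinase Tnfaip3 (A20) was at 27.1, 27.9 and 27.7 CPM with PBS and 256, 306 and 253 CPM with LPS (log2 fold change 3.30 ± 0.42). Its partner Tnip3 rose by a log2 fold change of 4.40 ± 0.57, the I kappa B family members Bcl3 and Nfkbia by 3.74 ± 0.48 and 2.64 ± 0.37, the RNase Zc3h12a, which degrades cytokine mRNAs, by 3.03 ± 0.30, and the ubiquitin ligase Birc3 by 2.86 ± 0.34. Socs3, the feedback inhibitor of interleukin 6 family signalling, separated the groups without overlap, with 26.9, 23.6 and 22.1 CPM against 334, 299 and 315 CPM (log2 fold change 3.71 ± 0.50). Of the 21 JAK, STAT and SOCS genes tested, 9 were higher and 1 lower. Of 26 AP-1, C/EBP and immediate early factors 12 were higher and 1 lower (none lower without LPS replicate 1 or 12, PBS replicate 7 or PBS replicate 7 and LPS replicate 2 together), led by Cebpd (log2 fold change 3.44 ± 0.58), a factor of the acute phase response.

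**Figure D2:**
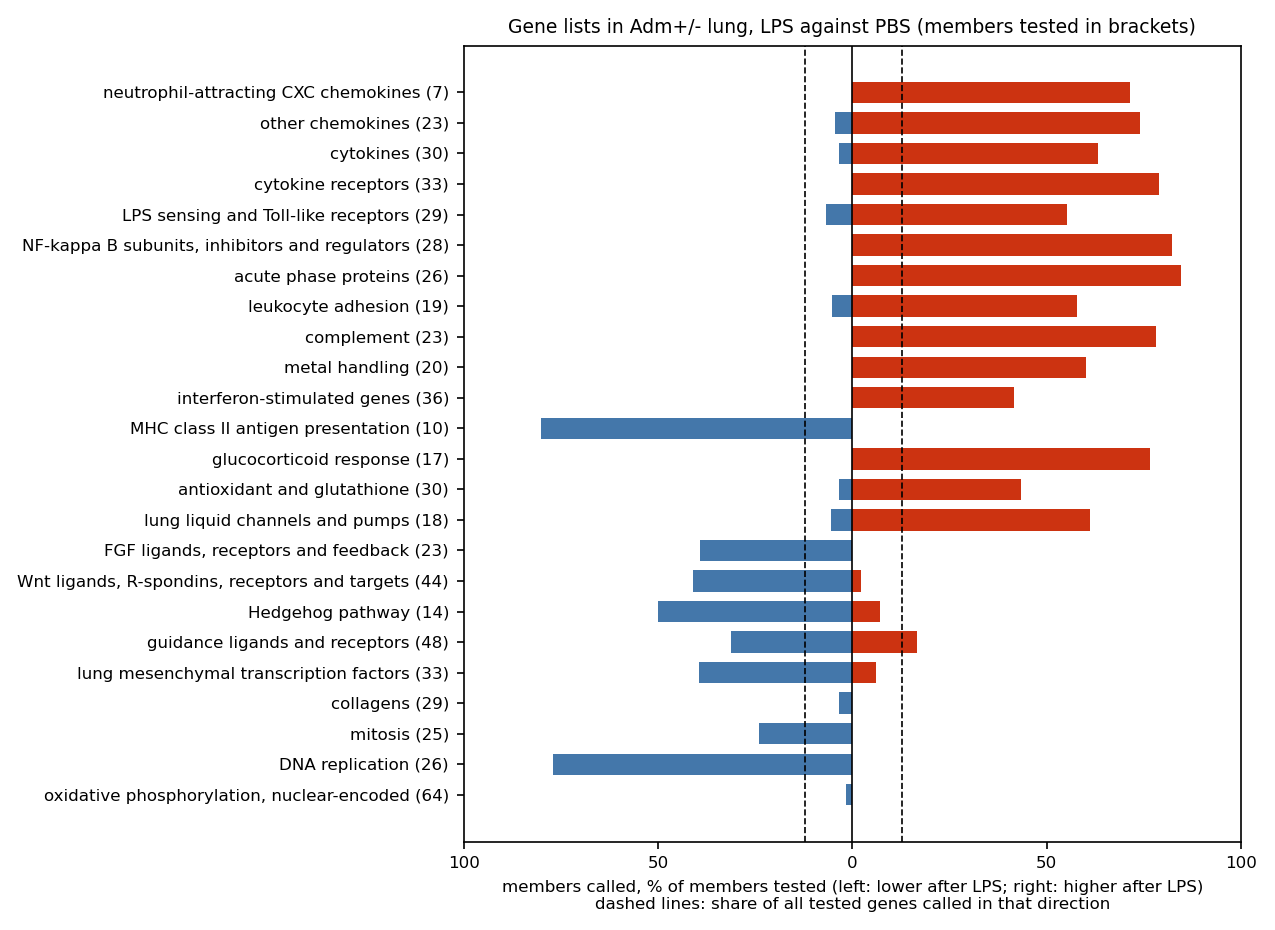
Share of the tested members of 24 gene lists called higher (red, right) or lower (blue, left) in Adm+/- lung with LPS. Dashed lines mark the share of all tested genes, 12.8% higher and 12.2% lower, and the number of members tested is in brackets.

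Acute phase proteins, secreted in infection and mostly known from liver, rose. Of 26 tested, 22 were called higher and none lower. Their median log2 fold change was 4.21, or 3.60 with the 4 members at 3 or fewer counts in each PBS library set at their bound. The summed level of the list was 487, 561 and 477 CPM with PBS and 7540, 6010 and 6590 CPM with LPS. Saa3, the serum amyloid made in macrophages and epithelium, went from 1.58, 1.05 and 0.835 CPM to 1572, 1330 and 1561 CPM (log2 fold change 10.36 ± 1.37, edgeR adjusted p = 0.000294). Lcn2, which sequesters bacterial iron carriers, went from 27.1, 35.9 and 31.7 CPM to 1632, 1187 and 1275 CPM (log2 fold change 5.43 ± 0.48), and the haemoglobin scavenger Hp from 178, 141 and 119 CPM to 1429, 1117 and 1346 CPM (3.15 ± 0.30). No PBS library reached the level of an LPS library in any of the 3. The protease inhibitor Serpina3n was at 0.21, 0.946 and 1.07 CPM with PBS and 408, 257 and 346 CPM with LPS (log2 fold change 8.74 ± 1.47), and Serpina3i and Serpina3g rose by 6.94 ± 1.18 and 6.60 ± 1.29 (the latter 7.32 without PBS replicate 7). The Serpina3 genes are related members of 1 gene family, so how any shared reads were divided among them is uncertain. Of the 9 tested liver markers, which include albumin, none was called by edgeR or limma-voom (median 0.57; 1 at an unadjusted p under 0.05: Apoh, named after its values were seen). DESeq2 called 1 higher, and edgeR called 2 higher without PBS replicate 7 or in a fit of the 6 libraries alone and 1 without WT PBS replicate 5. The liver list summed to 10.8, 37.6 and 9.82 CPM with PBS and 28.5, 20.5 and 21.9 CPM with LPS, highest in PBS replicate 7.

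Genes of metal withholding, complement and coagulation rose. Of 20 metal handling genes tested 12 were called higher and none lower: Steap4, a reductase of iron and copper, went from 4.68, 7.13 and 5.76 CPM to 362, 424 and 380.5 CPM (log2 fold change 6.04 ± 0.75), the metallothioneins Mt1 and Mt2 rose by 4.20 ± 0.41 and 5.96 ± 0.64, the zinc and iron importer Slc39a14 by 2.86 ± 0.37, and the ferritin heavy chain Fth1 by 2.19 ± 0.23. Of 23 complement genes 18 rose and none fell (median 1.27), with the receptors of the C3a and C5a fragments, C3ar1 and C5ar1, at a log2 fold change of 2.58 ± 0.33 and 2.65 ± 0.26 and C3, the most abundant, at 1.94 ± 0.18. Of 20 coagulation and fibrinolysis genes 11 rose and none fell (1 without LPS replicate 1, PBS replicate 7, PBS replicate 8 or PBS replicate 7 and LPS replicate 2 together), among them factor X (F10, log2 fold change 3.09 ± 0.35). Acod1, the enzyme that makes itaconate from a citric acid cycle intermediate, was at 0, 0.507 and 0.0398 CPM with PBS and 104, 135 and 91.2 CPM with LPS (log2 fold change 8.98 ± 0.99; 11.95 without PBS replicate 7). Its list of itaconate, arginine and tryptophan enzymes had 7 of 13 called higher, and 4 without PBS replicate 7, PBS replicate 8, LPS replicate 2 or PBS replicate 7 and LPS replicate 2 together. Slc13a3, a sodium-coupled dicarboxylate transporter, had the smallest p of all genes, with 1.16, 1.32 and 1.35 CPM against 64.8, 39.5 and 57.8 CPM (log2 fold change 5.39 ± 0.30, edgeR adjusted p = 1.33e-05).

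Neutrophil markers rose. Of 29 markers listed, 28 were tested, 28 were called higher, and Elane had too few counts. The list summed to 176, 189 and 145 CPM with PBS and 2520, 2570 and 2920 CPM with LPS (median log2 fold change 3.90, also with 2 members at their bound). The calprotectin subunit S100a8 went from 8, 9.39 and 6.72 CPM to 436, 440 and 527 CPM (log2 fold change 5.86 ± 0.67, edgeR adjusted p = 0.000131), and the granule protein Ngp from 8.57, 4.02 and 4.89 CPM to 242, 296 and 299 CPM (5.60 ± 0.56). The NADPH oxidase subunit Ncf1, one of the 5 smallest p values, rose by a log2 fold change of 2.34 ± 0.16. In whole lung, more cells of a type and more RNA per cell cannot be told apart. Fold changes ranged from 1.25 to 5.86 on the log2 scale over the tested markers.

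Adhesion molecules that slow and hold leukocytes on endothelium rose, with 11 of 19 called higher and 1 lower (2 without PBS replicate 8 or WT PBS replicate 5, 0 without PBS replicate 7 and LPS replicate 2 together). P-selectin (Selp) went from 0.263, 0.574 and 0.477 CPM to 74.4, 99 and 70.4 CPM (log2 fold change 7.46 ± 0.89) and E-selectin (Sele) rose by 5.58 ± 0.69. Ackr1, the chemokine-binding receptor of venules, rose by a log2 fold change of 5.51 ± 0.81 (6.44 without PBS replicate 8). Of 21 pan-endothelial genes 2 were called higher (1 without PBS replicate 7 and LPS replicate 2 together) and 5 lower, a share near that of all genes in the higher direction. Among the called, the VEGF receptor Kdr fell from 602, 545 and 598 CPM to 269, 282 and 259 CPM (log2 fold change -1.11 ± 0.16, edgeR adjusted p = 0.000429), as did the transcription factor Sox17 (-1.34 ± 0.20). The sphingosine 1-phosphate receptor S1pr1 rose (log2 fold change 1.53 ± 0.26). Cdh5 (VE-cadherin) and Cd93, among the most abundant endothelial genes, were not called (edgeR adjusted p = 0.582 and 0.352).

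Macrophage genes rose in part. Of 25 monocyte and interstitial macrophage markers 15 were called higher and 3 lower (1 without PBS replicate 7 and LPS replicate 2 together). The lower share was near the 12.2% of all tested genes. Of 15 alveolar macrophage markers 6 were higher and none lower. The scavenger receptor Marco rose by a log2 fold change of 3.79 ± 0.42, while the lectin Mgl2, found on tissue macrophages and dendritic cells, was at 1.26, 2.37 and 1.91 CPM with PBS and 0.112, 0.545 and 0.178 CPM with LPS (-2.76 ± 0.54, or -3.63 without LPS replicate 2). Class II antigen presentation fell: of 10 genes tested 8 were called lower and none higher (median -0.94). H2-Ab1, a class II beta chain, went from 54.7, 53.7 and 45.2 CPM to 21.9, 29.3 and 22.8 CPM (log2 fold change -1.05 ± 0.23), and Ciita, the factor that drives class II transcription, fell (-0.97 ± 0.23). The groups did not overlap for H2-Ab1. Class II genes are expressed by dendritic cells, B cells and macrophages, and in those lists 3 of 9 dendritic cell markers were lower and 1 higher, and none of 14 B cell markers was lower (1 without WT PBS replicate 3 or 5) and 1 was higher. The part of these cells in the fall was not tested.

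Lymphoid and interferon lists depended on single libraries. Gzmb, a granzyme of natural killer and cytotoxic T cells, was at 0.0526, 0.203 and 0 CPM with PBS and 3.1, 4.48 and 2.78 CPM with LPS (log2 fold change 5.14 ± 0.84; 6.95 without PBS replicate 7), and Gzma rose by 1.89 ± 0.34. Of 11 natural killer markers tested, out of 17 listed, 4 were called higher, and 2 without LPS replicate 2, PBS replicate 7, PBS replicate 8 or PBS replicate 7 and LPS replicate 2 together. The summed natural killer list was 7.84, 7.23 and 5.92 CPM with PBS and 12.3, 21.3 and 14.1 CPM with LPS. Of 16 T cell markers 4 were called lower, and 2 or fewer with any 1 of the 6 libraries left out (2 without PBS replicate 8, 1 without LPS replicate 12 or PBS replicate 6 or 7, 0 without LPS replicate 1, LPS replicate 2 or PBS replicate 7 and LPS replicate 2 together). It was also 2 without WT LPS replicate 11 or WT PBS replicate 3. With all 12 libraries kept, it was 2 with RLE size factors, limma-voom or no filter on low counts, and 0 with glmTreat. Of 36 interferon-stimulated genes 15 were called higher, with list sums of 594, 1870 and 591 CPM with PBS and 1850, 4180 and 1880 CPM with LPS, so PBS replicate 7 stood level with 2 of the LPS libraries. The count was 32 without PBS replicate 7, 4 without LPS replicate 2, 5 without PBS replicate 6 or PBS replicate 8, and 24 without PBS replicate 7 and LPS replicate 2 together.

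**Figure D3:**
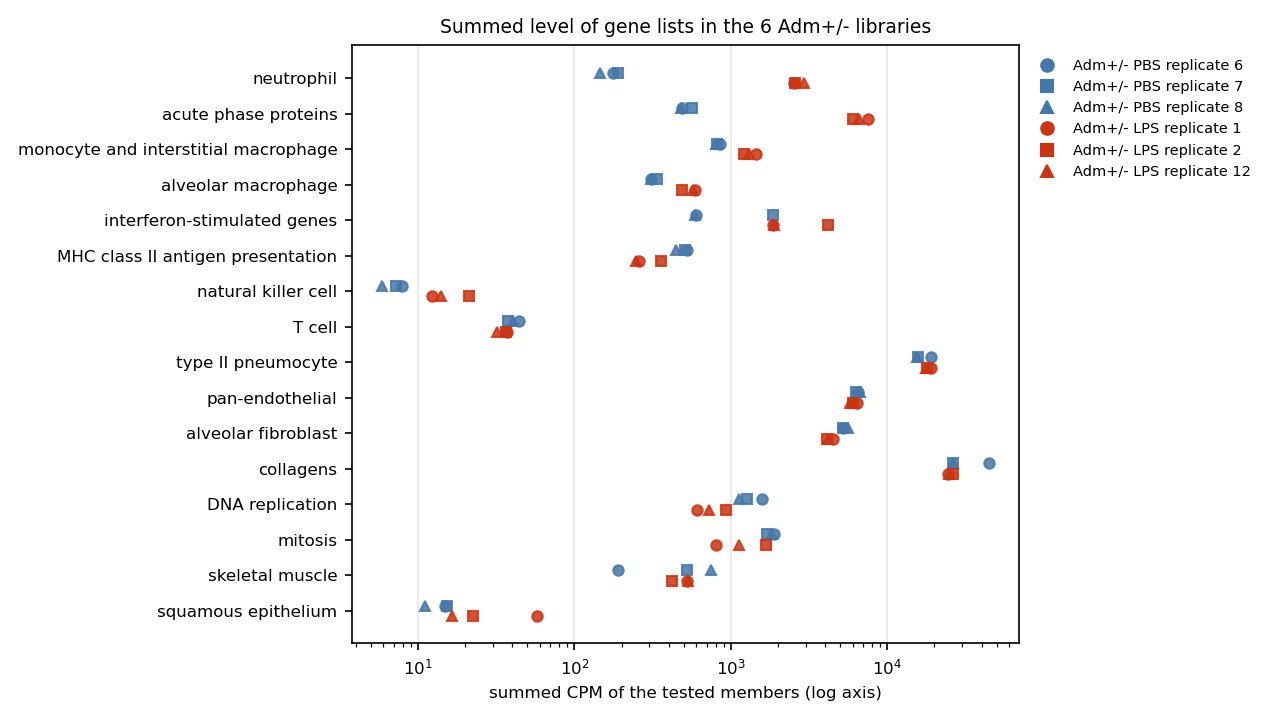
Summed CPM of the tested members of 16 gene lists in each of the 6 Adm+/- libraries, on a log axis, PBS in blue and LPS in red. The groups lie apart for neutrophil, acute phase and class II genes and meet for interferon-stimulated genes, where PBS replicate 7 lies with LPS replicates 1 and 12.

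Genes that respond to glucocorticoids rose, with 13 of 17 called higher and none lower (median 1.74; 1 lower without WT LPS replicate 10 or WT PBS replicate 4 or 5). The transcription factor Zbtb16 went from 14.9, 10.8 and 11.6 CPM to 499, 475 and 484 CPM (log2 fold change 5.29 ± 0.86, edgeR adjusted p = 0.000958), and Fkbp5, a chaperone of the glucocorticoid receptor, from 47.9, 30.3 and 25.1 CPM to 383, 370.5 and 428 CPM (3.52 ± 0.32). For both genes the 3 LPS libraries lay close to each other and far above any PBS library. Per1, a clock gene with a glucocorticoid response element, rose by a log2 fold change of 2.70 ± 0.53, Pdk4, which holds back pyruvate oxidation, by 3.79 ± 0.50, and Tsc22d3 (GILZ) by 2.18 ± 0.29. The receptor Nr3c1 was at 193, 244 and 254 CPM with PBS and 212, 270.1 and 236 CPM with LPS (edgeR adjusted p = 0.852). No hormone was measured.

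Antioxidant and transport genes showed strong single members. Slc7a11, the cystine importer that feeds glutathione synthesis, went from 1, 1.66 and 1.51 CPM to 64.3, 67.1 and 56.1 CPM (log2 fold change 5.46 ± 0.49), the synthesis enzyme Gclc rose by 2.81 ± 0.33 and the mitochondrial superoxide dismutase Sod2 by 2.95 ± 0.32. The list of 30 antioxidant genes had 13 called higher and 1 lower (none lower without LPS replicate 1, PBS replicate 6 or PBS replicate 7 and LPS replicate 2 together). Of 18 channels and pumps of lung liquid, 11 were higher and 1 lower (2 without LPS replicate 2). The water and glycerol channel Aqp3 rose by a log2 fold change of 5.17 ± 0.69, the anion exchanger pendrin (Slc26a4) went from 0.316, 0.676 and 0.199 CPM to 21.4, 20.1 and 19.3 CPM (5.61 ± 0.60; 6.31 without PBS replicate 7), the sodium pump subunit Atp1b1 rose by 1.82 ± 0.20 and the sodium channel subunit Scnn1a by 1.22 ± 0.15. Among glycolysis and hypoxia genes 11 of 29 were higher and 1 lower, with hexokinase Hk2 at a log2 fold change of 2.44 ± 0.23 and the hypoxia-inducible factor Hif3a at 3.59 ± 0.56. Nuclear-encoded genes of oxidative phosphorylation had a median of -0.07, with none of 64 called higher and 1 lower (0 without LPS replicate 1, 2 or 12, PBS replicate 6 or 7 or PBS replicate 7 and LPS replicate 2 together, and 2 without PBS replicate 8 or WT PBS replicate 5).

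Many growth signal genes of alveolar formation fell. Of 44 Wnt genes tested 18 were called lower and 1 higher (median -0.50). Rspo2, an R-spondin that amplifies Wnt signals and is made by lung mesenchyme, went from 14.9, 17.8 and 20.7 CPM to 0.823, 0.838 and 0.534 CPM (log2 fold change -4.60 ± 0.53, edgeR adjusted p = 0.000143), the largest called fall under the naming rule. The mesenchymal ligand Wnt2 went from 95.6, 68.1 and 70.2 CPM to 23.2, 31 and 25.5 CPM (log2 fold change -1.55 ± 0.25). In both, every LPS library lay below every PBS library. Wnt11 (log2 fold change -1.90 ± 0.29), Rspo4 (-1.97 ± 0.24) and Wnt5a (-1.23 ± 0.18) fell too, and the gene called higher was the secreted Wnt antagonist Sfrp1 (1.44 ± 0.24; without LPS replicate 2 another was called too). Axin2, a common target of Wnt signals named after its values were seen, was not called (110.2, 92.5 and 100 CPM with PBS, 84.7, 72.9 and 79 CPM with LPS, edgeR adjusted p = 0.0814).

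Of 23 FGF genes tested 9 were called lower and none higher (median -0.45; 1 higher without LPS replicate 12 or WT PBS replicate 5). Fgf10, the mesenchymal ligand that maintains alveolar epithelial progenitors, went from 36, 40.8 and 44.7 CPM to 13.3, 15.8 and 12.5 CPM (log2 fold change -1.54 ± 0.20, edgeR adjusted p = 0.000239). Fgf18, a ligand of myofibroblasts (log2 fold change -0.95 ± 0.15), the receptors Fgfr3 and Fgfr4, which act together in alveolar septation (-1.16 ± 0.22 and -1.68 ± 0.27), and the epithelial target Etv5 (-1.28 ± 0.18) fell as well. Fgfr2, the receptor of FGF10, was not called (edgeR adjusted p = 0.0701). In the Hedgehog list 7 of 14 were called lower and 1 higher, and the lower count was 3 without LPS replicate 1 and 4 without LPS replicate 12, PBS replicate 8 or PBS replicate 7 and LPS replicate 2 together. The effector Gli2 went from 39.6, 35.1 and 41.2 CPM to 17.1, 17.9 and 16.4 CPM (log2 fold change -1.17 ± 0.17), the epithelial ligand Shh fell (-0.97 ± 0.22), as did the signal transducer Smo (-0.91 ± 0.20). The co-receptor Gas1 rose by a log2 fold change of 1.26 ± 0.15. The share of members called lower was above the 12.2% of all genes in each of the 3 pathways.

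**Figure D4:**
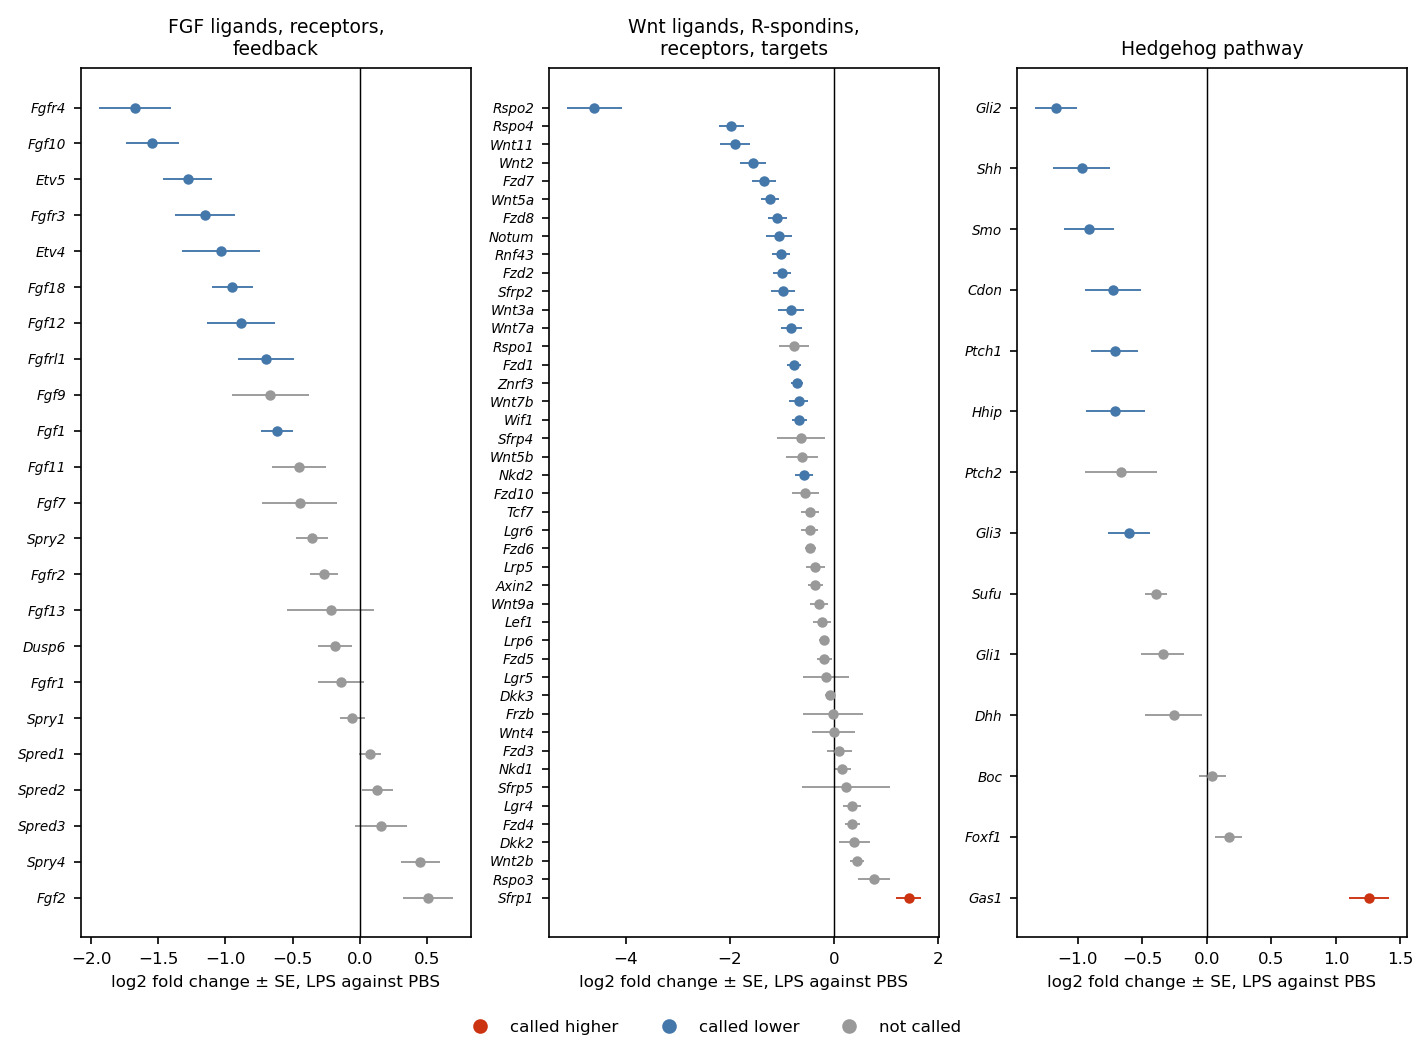
Log2 fold change (LPS against PBS in Adm+/-) with its SE for each tested FGF, Wnt and Hedgehog gene, red called higher, blue called lower, grey not called. Points lie mostly left of 0 in each panel, and Sfrp1 and Gas1 are the 2 called to the right.

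Transcription factors and markers of the lung mesenchyme fell in part. Of 33 mesenchymal transcription factors 13 were called lower and 2 higher (8 and 1 without PBS replicate 7 and LPS replicate 2 together). Meox2 went from 104, 113 and 114 CPM to 21.9, 23.5 and 19.4 CPM (log2 fold change -2.35 ± 0.30) and Foxf2 fell (-1.41 ± 0.20). Of 17 alveolar fibroblast markers 9 were lower and 1 higher (0 without LPS replicate 1, LPS replicate 12, PBS replicate 6 or PBS replicate 7). Adh1, an alcohol and retinol dehydrogenase of these fibroblasts, went from 432, 438 and 436 CPM to 129, 111 and 121 CPM (log2 fold change -1.85 ± 0.21). The spread within each group was small beside the difference. Of 16 myofibroblast markers 1 was higher (2 without PBS replicate 8) and 7 were lower, or 4 without LPS replicate 12 or PBS replicate 8 and 3 without PBS replicate 7 and LPS replicate 2 together, with Pdlim3 at a log2 fold change of -1.87 ± 0.15. Elastin (Eln), the main product of these cells in alveolar formation, was at 6554, 4739 and 4564 CPM with PBS and 7751, 4577 and 6434 CPM with LPS (edgeR adjusted p = 0.601).

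Guidance genes, named for axons and active in vessels and mesenchyme, had 8 of 48 called higher, not far from the 12.8% of all genes (5 without PBS replicate 7 and LPS replicate 2 together), and 15 lower. The ephrin receptor Epha8 went from 4.31, 2.87 and 3.82 CPM to 0.337, 0.377 and 0.428 CPM (log2 fold change -3.25 ± 0.54), the netrin receptor Unc5c fell (-1.72 ± 0.22), and the membrane-anchored semaphorin Sema7a rose by 2.55 ± 0.30. Of 38 TGF-beta and BMP genes 7 were higher and 9 lower: the activin subunit Inhbb went from 25.6, 16.4 and 13.5 CPM to 137, 142 and 122 CPM (log2 fold change 2.86 ± 0.37) while Tgfb2 (-1.35 ± 0.16) and Tgfb3 (-1.43 ± 0.15) fell. Of 25 PDGF, VEGF and angiopoietin genes 3 were higher (5 without PBS replicate 8), near the 12.8% of all genes, and 8 lower, against 12.2%. Pgf was at a log2 fold change of 2.21 ± 0.29 and Vegfd at -1.34 ± 0.20. Vegfa was not called (edgeR adjusted p = 0.124).

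Matrix genes split by class. Of 33 proteases and inhibitors 14 were higher and 9 lower, with the neutrophil collagenase Mmp8 at a log2 fold change of 4.94 ± 0.66. Of 29 collagens none was called higher and 1 lower (Col25a1). The lower count was 6 in a fit of the 6 libraries alone, 3 with DESeq2 and 0 with glmTreat. It was 7 without WT PBS replicate 5, 2 without WT PBS replicate 3 and 0 without PBS replicate 7 and LPS replicate 2 together. The 3 most abundant, Col1a1, Col3a1 and Col4a1, were not called (edgeR adjusted p = 0.169, 0.243 and 0.631).

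Most genes of DNA replication fell, while the calls of mitosis genes depended on single libraries. Of 26 replication genes 20 were called lower and none higher (median -0.87), and the count was 11 without LPS replicate 1 or PBS replicate 6 and 13 without LPS replicate 12. Mcm2, a subunit of the replicative helicase, went from 94.4, 72.2 and 66.3 CPM to 29.1, 43.6 and 29.8 CPM (log2 fold change -1.18 ± 0.22), and E2f1, a factor that drives S phase genes, from 56.2, 34.6 and 29.8 CPM to 11.9, 15.2 and 13.4 CPM (-1.57 ± 0.30). The loader Cdc6 fell (log2 fold change -1.53 ± 0.22). The 25 mitosis genes summed to 1880, 1710 and 1840 CPM with PBS and 807, 1670 and 1120 CPM with LPS, so LPS replicate 2 stood near the PBS libraries, and 6 were called lower. That count was 19 without LPS replicate 2, 0 without LPS replicate 1 or LPS replicate 12, 1 without PBS replicate 6 or PBS replicate 8, 3 without PBS replicate 7 and 15 without PBS replicate 7 and LPS replicate 2 together.

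Alveolar and airway epithelium showed changes in single genes. Of 22 type II pneumocyte markers 6 were called higher and 4 lower (median 0.06). The collectin Sftpd, which binds bacterial sugars, went from 195, 155 and 142 CPM to 575, 408 and 449.6 CPM (log2 fold change 1.54 ± 0.19, edgeR adjusted p = 0.000217), the phosphate transporter Slc34a2 rose by 0.68 ± 0.11 and the surfactant processing protease Ctsh by 0.98 ± 0.13. Sftpc, the most abundant marker, was at 11610, 9196 and 8199 CPM with PBS and 9525, 9456 and 9134 CPM with LPS and was not called (edgeR adjusted p = 0.844). Lgi3 fell (log2 fold change -0.81 ± 0.14). Of 15 club and secretory airway markers 5 were higher (8 without PBS replicate 7, 3 without LPS replicate 1, WT LPS replicate 11 or PBS replicate 7 and LPS replicate 2 together, 2 without LPS replicate 2 or 12 or PBS replicate 6 or 8), and DESeq2 called 8, a fit of the 6 libraries alone 10 and glmTreat 0. The epithelial transcription factors had 6 of 22 called higher and 3 lower (3 and 1 without PBS replicate 7 and LPS replicate 2 together), with Elf3, induced by cytokines in epithelium, at a log2 fold change of 1.38 ± 0.32.

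The other named genes were chosen by the size of their change or of their p. Of the 10 largest falls, Shisa2, an inhibitor of Wnt and FGF receptor maturation, went from 61.4, 49.6 and 50.8 CPM to 3.89, 5.2 and 4.49 CPM (log2 fold change -3.58 ± 0.38), the phosphatase Ptpn5 from 36.9, 30.2 and 32.4 CPM to 3.96, 5.11 and 4.56 CPM (-2.87 ± 0.33) and the sodium-calcium exchanger Slc8a3 from 7.94, 7.26 and 8.15 CPM to 0.86, 1.76 and 0.855 CPM (-2.75 ± 0.27). None of the 3 showed any overlap between the groups. Thsd7b fell (log2 fold change -2.86 ± 0.42) but overlaps several unnamed transcripts, and the low genes Tmem74, Tmem233 and Lmo3 stood between 1.55 and 2.89 CPM in the PBS libraries and at 0.293 CPM or less in the LPS libraries. In transcript mass the largest gain among called genes was the matrix protein fibronectin (Fn1), from 2801, 2521 and 3068 CPM to 4704, 4473 and 4058 CPM (log2 fold change 0.66 ± 0.15), and the largest losses were the cytoskeletal linker Macf1 (-0.58 ± 0.10) and the sodium channel Scn7a (-1.40 ± 0.24). Pik3r5, a subunit of the phosphoinositide 3-kinase of leukocytes, and Gas7 had p values among the 5 smallest and rose by a log2 fold change of 3.19 ± 0.21 and 1.40 ± 0.10. Prok2, a secreted ligand of myeloid cells, went from 0, 0.135 and 0.0398 CPM to 15.8, 14.8 and 19 CPM (log2 fold change 7.84 ± 0.81; 9.22 without PBS replicate 7).

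Compared with WT mice given the same treatment, in which 17.6% of genes were called, a difference in the LPS response was called for 0.145% of genes (23), and for each of them the response was lower in Adm+/-. Of those 23, 9 were in the skeletal muscle list. Genes outside that list were not sorted by tissue, so 9 is not a count of all muscle genes. The number called for the difference was between 5 and 11 when any 1 Adm+/- library, WT LPS replicate 9 or WT PBS replicate 3 or 4 was left out, and 65 without WT LPS replicate 10. The number called in WT, 2791, was 1443 without WT LPS replicate 9. Atp2a1, the calcium pump of fast muscle, was at 2.89, 2.37 and 2.54 CPM with PBS and 3.89, 2.22 and 2.78 CPM with LPS in Adm+/- lungs, against 1.63, 2.09 and 2.96 CPM with PBS and 134, 139 and 54 CPM with LPS in WT lungs. Of the 18 skeletal muscle genes tested, 18 were called higher with LPS in WT (median 5.94) and 1 in Adm+/- (median 0.70). In Adm+/- 5 of the 18 were higher without overlap, against 53.7% of all tested genes without overlap in either direction. The list summed to 191, 526 and 743 CPM with PBS and 521, 422 and 533 CPM with LPS in Adm+/-. The count in Adm+/- was 4 with DESeq2 or in a fit of the 6 libraries alone, 0 with limma-voom, 5 without WT LPS replicate 11 and 2 without WT LPS replicate 10 or WT PBS replicate 4 or 5. The squamous marker Krt4 was at 1382, 11 and 755 CPM in WT LPS, high in 2 of the 3, and at 0.579, 0.574 and 0.358 CPM with PBS and 19.3, 4.82 and 1.75 CPM with LPS in Adm+/-. The 12 squamous markers tested in Adm+/- summed to 14.8, 15.4 and 11.1 CPM with PBS and 57.6, 22.5 and 16.6 CPM with LPS, highest in LPS replicate 1. Of the 12, 9 were higher without overlap, against 53.7% of all tested genes without overlap in either direction. The median log2 fold change of the 12 was 3.10, or 1.83 with 5 members at their bound. None was called by edgeR or limma-voom (2 at an unadjusted p under 0.05), while DESeq2 called 5 higher, and edgeR called 3 in a fit of the 6 libraries alone, 7 without WT LPS replicate 10 and 1 without LPS replicate 12. The part of other tissue in those libraries was not tested. Genes of the groups above, such as Cxcl2, Saa3, Rspo2 and Fgf10, had no called difference (edgeR adjusted p = 0.327, 0.431, 0.467 and 0.408). For Pla1a, a phosphatidylserine phospholipase with one of the 5 smallest p values in Adm+/- (log2 fold change 4.91 ± 0.30), the difference of 2.32 missed the threshold (edgeR adjusted p = 0.0644). WT PBS replicate 4 carried Saa3 at 38.05 CPM and enters both the spread and this comparison.

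**Figure D5:**
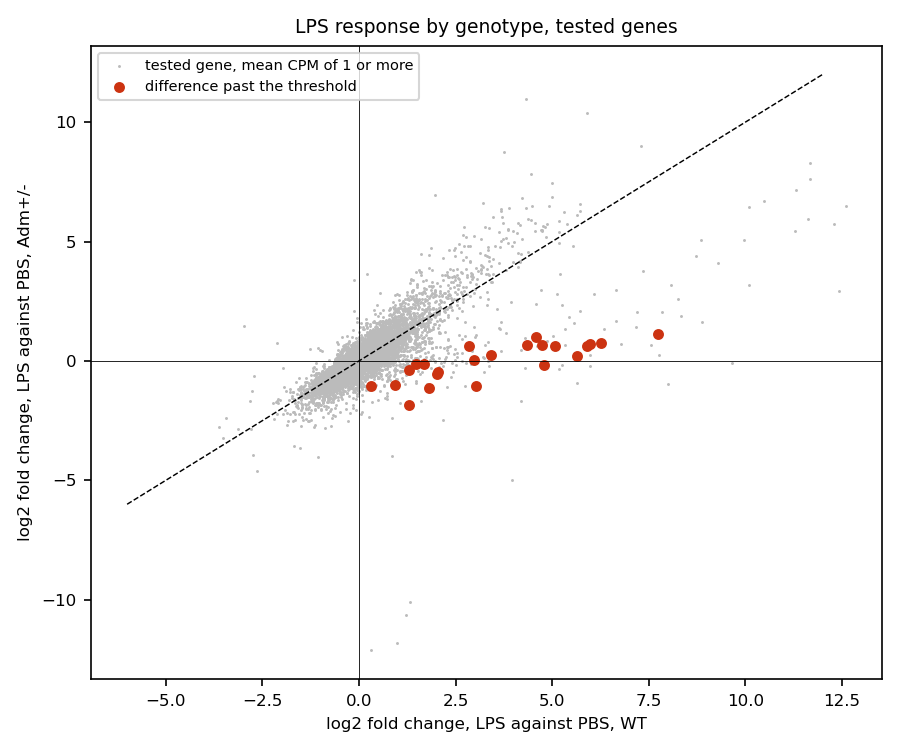
Log2 fold change with LPS in WT (horizontal) and Adm+/- (vertical) for the 14595 tested genes with a mean of 1 CPM or more over the 12 libraries, with the line of equal response dashed. The 23 genes with a called difference (red) lie below the line, and the 4 points at the bottom are Y-linked genes, which summed to 265 CPM in Adm+/- PBS replicate 8 and to 0.101 CPM or less in the other Adm+/- libraries.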

How the data were processed

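Whole-lung RNA of 12 mice, 3 in each of 4 groups, was depleted of ribosomal RNA and sequenced with a directional kit. The authors trimmed reads with Trim Galore, aligned them with HISAT2 to mm10 (GRCm38) and counted them per Gencode gene with featureCounts; the deposited values are raw counts. The Gencode release and strand option are not given in the sources used here, and 99.9% of tested genes were found in Gencode M21, from which positions were taken.

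Groups followed the labels, which give 1 mouse per library and no litter or batch. Of 21950 protein-coding genes, 15885 passed filterByExpr over the 4 groups. The counts of all 12 libraries were fitted with edgeR 4.0.16 (R 4.3.3; TMM, quasi-likelihood test, 1 coefficient per group, 8 residual degrees of freedom), and p values were adjusted by Benjamini-Hochberg over all tested genes. A gene was called at an adjusted p under 0.05 with an absolute log2 fold change above 0.5. The tests were two-sided, and the script was tested on simulated data. The WT libraries share the estimate of the spread in this fit. Counts of 3 or fewer in every library of a group were taken as a floor, and folds against it as bounds that cover counting error only.

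The members and the gene lists were chosen with earlier results of these data known. Named genes were the 10 largest rises and 10 largest falls among called genes whose groups did not overlap, with a mean of at least 1 CPM, the 5 largest gains and 5 largest losses in CPM, the 5 smallest p values for the response and for its difference between genotypes, Adm and its receptor genes, and in each list the 3 most abundant and up to 5 most changed members; a few uncalled genes were named after their values were seen, as stated beside them. Some genes that the rule selects are not reported here. Fkbp5, Meox2, Slc7a11, Smo, Unc5c, C3, Ptpn5, Ackr1 and Ramp2 overlap another annotated gene on their strand, so their counts may lack shared reads or hold some.

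Alternatives were size factors of DESeq2 in edgeR (RLE), DESeq2 1.42.0, limma-voom (limma 3.58.1), other filters, a fit of the 6 Adm+/- libraries alone, glmTreat, and leaving out each library. Leaving out PBS replicate 7 with LPS replicate 2, and each WT library for the response in Adm+/-, was added after the data were seen. Promoter windows were found by symbol for 76.4% of tested genes, below the 80% set for a comparison of called with uncalled genes, so that comparison is void and none is given.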

Additional observations from a re-analysis of the deposited data

Results flagged for a closer look

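The LPS response differed between Adm+/- and WT lungs past the threshold of edgeR's interaction test for 23 genes, which is 0.145% of those tested. The values are the log2 fold change with LPS in Adm+/- minus that in WT, from 3 mice per group. Those of the skeletal muscle list were Atp2a1 (-5.44), Neb (-3.68), Mylpf (-5.53), Ryr1 (-5.27), Myh8 (-6.62), Actn3 (-4.98), Tnnt3 (-4.46), Tnni2 (-5.27) and Casq1 (-2.93). The others, which were not sorted by tissue, were Myom3 (-4.09), Zcchc5 (-3.12), Lrtm1 (-2.54), AW551984 (-2.23), Musk (-4.05), Itgb1bp2 (-1.61), Tmem38a (-1.34), Eno3 (-1.81), 1110002E22Rik (-2.94), Cmya5 (-1.94), Fndc3c1 (-3.18), Tbx15 (-3.57), Cavin4 (-1.66) and Apobec2 (-2.48). Every one of these differences was negative. The count fell to 5 when Adm+/- PBS replicate 7 was left out and rose to 65 when WT LPS replicate 10 was, and limma-voom called 1.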

How the results depend on the processing

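The number of genes called in Adm+/- (3968; 2035 higher, 1933 lower) was 3931 with RLE size factors, 4288 with DESeq2, 3988 with limma-voom, 3943 with no filter, 3832 with a filter at 1 CPM and 4527 in a fit of the 6 Adm+/- libraries alone. glmTreat, which tests against the fold threshold itself, called 1695 (1096 higher, 599 lower, so 64.7% of them higher, against 50.3% to 55.1% in the other settings), and 399 list genes. Of the members called lower, it kept 1 of 7 in the Hedgehog list, 9 of 18 in the Wnt list and 5 of 9 in the FGF list. It kept 2 of 8 in the class II list, 8 of 20 in the DNA replication list and 0 of 6 in the mitosis list. Leaving out 1 of the 12 libraries gave 3033 to 4503 genes, 1670 to 2268 higher, 1363 to 2235 lower and 563 to 717 list genes; the highest were without WT PBS replicate 5. Without PBS replicate 7 and LPS replicate 2 together, 1481 were higher and 1286 lower. The genes called for the difference numbered 5 to 65 with 1 library left out and 1 with limma-voom, and those called in WT 1443 to 3074. Of the log2 fold changes given here, that of Adm, which was not called, turned to -0.1 without PBS replicate 7 and LPS replicate 2 together and lay between 0.06 and 0.51 with 1 library left out; no other changed sign in any setting, and no called one lost its call with 1 of the 12 libraries left out. DESeq2 gave Zbtb16 no adjusted p. Without PBS replicate 7 and LPS replicate 2 the calls of Cxcl12, Elf3 and Fn1 were lost, and under glmTreat those of Ciita, Cxcl12, Fn1, Macf1, Shh, Slc34a2 and Smo. The cause of these shifts was not tested. No paired analysis was possible because no groups share a replicate number. With 3 mice per group, genes that miss the threshold are not shown to be unchanged, and the folds of some transcripts near the floor of 3 counts moved by over 1.5 times with 1 PBS or LPS library left out.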
